A study of Mus musculus with 8 samples.

Results

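Marrow of leukaemic mice that carried Aid-deficient, LPS-treated leukaemia cells (KO_LPS) was compared with marrow of mice that carried Aid-intact, vehicle-treated leukaemia cells (WT_PBS). The comparison uses 5 of the 8 RNA sequencing libraries of the series, 3 for KO_LPS and 2 for WT_PBS. The libraries were assigned by their labelled genotype and treatment, with no measured value used. Of 18020 rows in the deposited table, 12062 were tested: those with a mean of at least 0.5 FPKM (fragments per kilobase of transcript, corrected for the library's total) over these 5 libraries, and 1 gene that was kept whatever its level.

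The leukaemia was made of mouse B-lineage cells transformed by BCR-ABL1, a fusion tyrosine kinase found in one kind of acute lymphoblastic leukaemia (B-ALL), and transplanted into mice. KO_LPS combined the Aid KO genotype with lipopolysaccharide (LPS), and WT_PBS combined Aid WT with phosphate-buffered saline. The remaining group, WT_LPS (n = 3), combined Aid WT with LPS and served here for the estimate of spread and as a side comparison. BCR-ABL1 was common to all groups. The design text words LPS and saline as treatments of the transplanted cells and gives no dose, time or route, and the sources used here give neither age nor strain of the mice. No library of Aid-deficient cells with saline was analysed here. Genotype and treatment therefore cannot be told apart in this comparison. Nothing in the labels tells whether a group's mice were given cells of separate transformations. The p-values hence cover the variation among these libraries only, part of which may be technical.

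LPS is a wall component of Gram-negative bacteria that is sensed by Toll-like receptor 4, whose adaptors drive NF-kB target genes and type I interferon. Interferons act through JAK kinases and STAT factors, which bind short promoter elements of their target genes. Interferon-gamma in particular induces guanylate-binding proteins and immunity-related GTPases, chemokines for T cells, and the genes of antigen presentation.

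The cells are labelled as B lymphocytes, and the markers were those of an early B-lineage stage. In the 5 libraries Cd79a, a signalling chain of the B cell receptor, had 844 to 1086 FPKM and the surrogate light chain gene Vpreb1 1996 to 2946 FPKM, while Ms4a1, the CD20 gene of mature B cells, had 0 to 0.3 FPKM. Transcripts of other marrow cells were present too: the 21 neutrophil markers summed to 6394 to 16036 FPKM in KO_LPS, against 13980 to 17540 FPKM in WT_PBS. In such bulk marrow, fewer cells of a type and less RNA per cell cannot be told apart. Library totals were 606576 to 700238 FPKM over the 8 libraries, and depth in reads is unknown. A first principal component carried 60.6% of the variance. KO_LPS 1 and KO_LPS 2 scored 34.5 and 50.04 on it, apart from KO_LPS 3 at -21.1, and the WT_PBS libraries scored -1.32 and -35.2. KO_LPS was less uniform than its labels say, and the value of KO_LPS 3 is given beside each gene whose libraries are listed. The numbers in the titles, whose meaning is not given, run with this split: KO_LPS 1, KO_LPS 2 and WT_PBS 1 carry numbers of 6 or below, and KO_LPS 3 and WT_PBS 2 numbers above 6.

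A short set of genes separated KO_LPS from WT_PBS past the test: Iigp1, Tgtp1, Clec2e and St3gal6 rose, and Gldc and Tceal9 fell. These 6 of 12062 genes (0.0497%), 4 higher (0.0332%) and 2 lower (0.0166%), had an adjusted p under 0.05 in limma's moderated test of log2(FPKM + 1) with Benjamini-Hochberg adjustment over all genes tested. Differences are given below on this log2 scale as KO_LPS minus WT_PBS, with their standard error. The scale understates the change of genes with low FPKM. With an unadjusted p under 0.05 there were 808 genes (6.7%), 348 higher (2.89%) and 460 lower (3.81%). The groups did not overlap for 995 higher genes (8.25%) and 1595 lower genes (13.2%). The median difference over all genes was -0.12, with 35.2% of genes above 0, and these shares are the background for every list below. Median-ratio scaling of the libraries brought that median to 0.0067, so a list median near -0.12 is at the background.

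**Figure D1:**
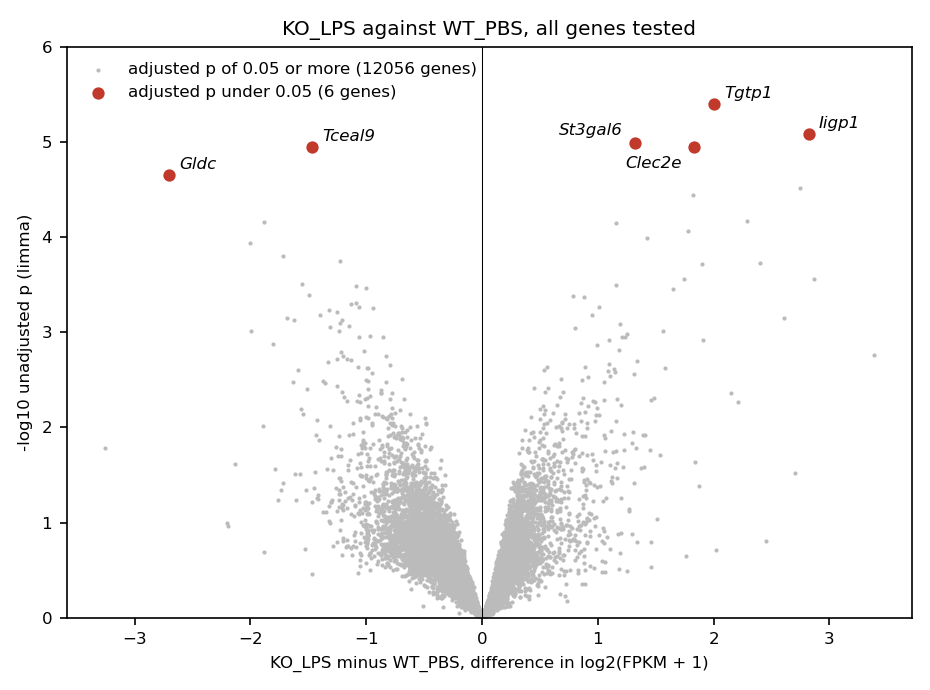
Difference of KO_LPS from WT_PBS in log2(FPKM + 1) (x axis) against -log10 of the unadjusted limma p (y axis) for each of the 12062 genes tested. Red points are the 6 genes with an adjusted p under 0.05, 4 to the right and 2 to the left, and grey points are the rest.

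Iigp1, an immunity-related GTPase that acts on the vacuoles of intracellular parasites, had 38.8, 34.6 and 24.4 FPKM in KO_LPS 1 to 3, against 4.09 and 3.3 FPKM in WT_PBS 1 and 2. Every KO_LPS library was far above both WT_PBS libraries, and the log2 difference was 2.82 ± 0.30 (limma adjusted p = 0.0274). Tgtp1, a GTPase of the same family (GRCm38.p6 chr11:48985329-48992246, the build of all positions below), had 5.58, 4.82 and 5.2 FPKM in KO_LPS, against 0.47 and 0.62 FPKM in WT_PBS. Its KO_LPS libraries lay close together and rose by 2.0 ± 0.19 (limma adjusted p = 0.0274). Tgtp1 and its neighbour Tgtp2 are near-identical copies, so reads may have been split between them.

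Clec2e, a C-type lectin-like gene of the natural killer gene complex (chr6:129091816-129100903), had 2.24, 3.38 and 3.58 FPKM in KO_LPS, against 0.21 and 0.05 FPKM in WT_PBS. It was almost silent in WT_PBS and detected in each KO_LPS library, with KO_LPS 3 the highest, and the difference was 1.83 ± 0.20 (limma adjusted p = 0.0274). St3gal6, a sialyltransferase that adds sialic acid to galactose of glycans (chr16:58469742-58524260), had 64.0, 58.9 and 51.1 FPKM in KO_LPS, against 20.8 and 24.2 FPKM in WT_PBS. It was the most abundant of the genes that rose, and averaged 58.0 ± 6.52 FPKM in KO_LPS and 22.5 ± 2.38 FPKM in WT_PBS (SD, n = 3 and n = 2). The difference was 1.33 ± 0.15 (limma adjusted p = 0.0274).

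Gldc, the glycine decarboxylase of the mitochondrial glycine cleavage system (chr19:30098441-30175441), had 0.1, 0.13 and 0.07 FPKM in KO_LPS, against 4.22 and 8.88 FPKM in WT_PBS. Transcripts were near 0 in each KO_LPS library, and the gene fell, with a log2 difference of -2.71 ± 0.33 (limma adjusted p = 0.0443). The WT_PBS libraries lay apart from each other, both far above KO_LPS. Tceal9, a member of the transcription elongation factor A-like family (chrX:136245080-136247139), had 9.53, 7.97 and 7.88 FPKM in KO_LPS, against 25.9 and 24.4 FPKM in WT_PBS. The spread within each group was small beside the gap, and the difference was -1.47 ± 0.16 (limma adjusted p = 0.0274).

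The sizes within the title-number ranges are a description, since groups without overlap fix the direction in any split of the libraries. Iigp1 differed by 2.89 among numbers up to 6 and by 2.56 above 6, Tgtp1 by 2.07 and 1.94, Clec2e by 1.64 and 2.12, and St3gal6 by 1.52 and 1.05. Gldc differed by -2.23 and -3.21, and Tceal9 by -1.47 and -1.51. The calls depended on single libraries more than the sizes did. With 1 library left out at a time, Iigp1 stayed between 2.69 and 3.01 and St3gal6 between 1.22 and 1.43, while the limma adjusted p reached 0.389 and 0.481. The size moved most for Gldc among the 6 genes, between -3.17 and -2.25. Without KO_LPS 1 no gene passed, without KO_LPS 2 a single unnamed locus passed, and without KO_LPS 3 there were 130 genes, 73 higher and 57 lower, the 6 above among them. No gene passed without WT_LPS 2, WT_LPS 3 or WT_PBS 1, 2 (Iigp1 and Tgtp1) without WT_LPS 1, and 2 unnamed loci without WT_PBS 2. An exact permutation test of 3 libraries against 2 cannot give a p below 0.2, and a fit of these 5 libraries alone called 0 genes, with 613 at an unadjusted limma p under 0.05.

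In WT_LPS, 4 of the 6 genes overlapped WT_PBS and the other two lay between KO_LPS and WT_PBS. Iigp1 had 2.13, 4.73 and 3.59 FPKM in WT_LPS, Tgtp1 0.37, 0.79 and 0.64 FPKM, Clec2e 0, 0.14 and 0.06 FPKM and Tceal9 24.9, 21.9 and 25.8 FPKM. For these 4 genes WT_LPS overlapped WT_PBS, and KO_LPS differed from WT_LPS by 2.93, 1.96, 1.92 and -1.41 (limma adjusted p of 0.0133, 0.0133, 0.0133 and 0.0189). St3gal6 had 32.0, 33.8 and 34.9 FPKM in WT_LPS, between the other two groups in every library. Gldc had 2.96, 3.49 and 1.52 FPKM in WT_LPS, all below WT_PBS and above KO_LPS. WT_LPS differed from WT_PBS by 0.56 for St3gal6 and -1.02 for Gldc, and neither passed (limma adjusted p = 1 for both). Over all genes, 8 (0.0663%) passed between KO_LPS and WT_LPS and 0 between WT_LPS and WT_PBS. These comparisons share libraries, so their differences are not independent of one another.

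**Figure D2:**
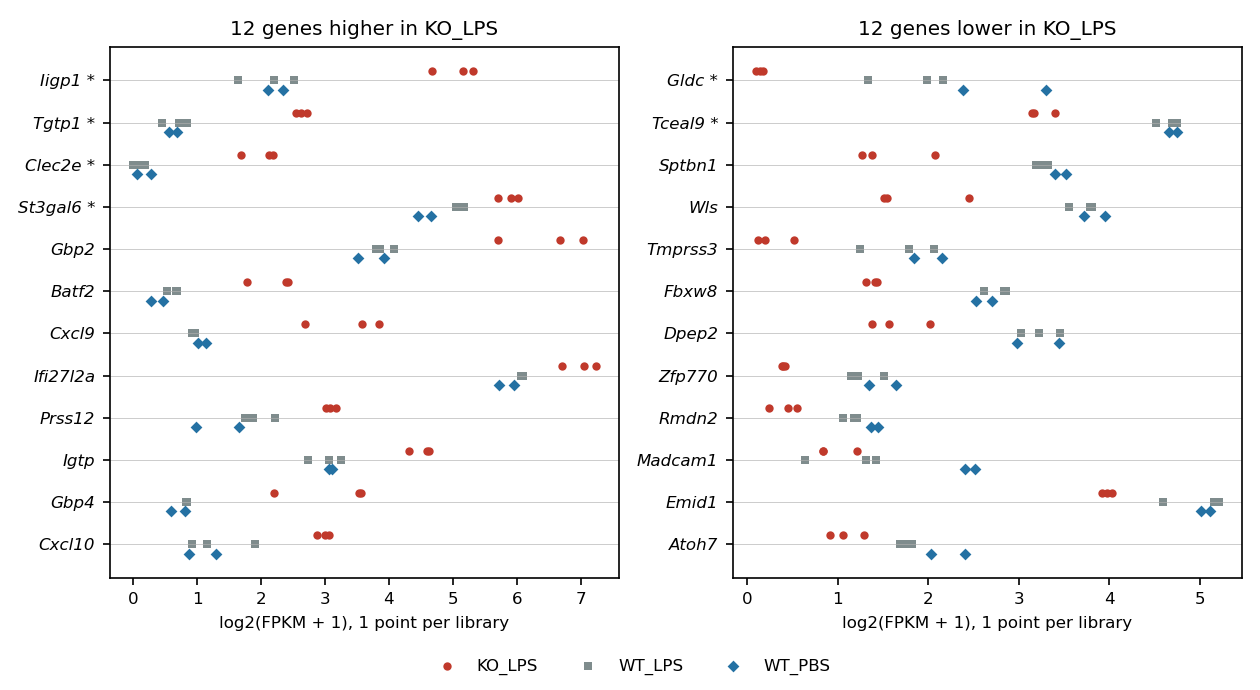
Levels in log2(FPKM + 1) (x axis) of the 12 highest-ranked and 12 lowest-ranked genes (rows), 1 point per library for KO_LPS (red circles), WT_LPS (grey squares) and WT_PBS (blue diamonds). An asterisk marks the 6 genes with an adjusted p under 0.05, and KO_LPS and WT_PBS do not overlap in any row, which is how the genes were chosen.

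The interferon-gamma inducible GTPases were higher in KO_LPS as a list. The list is named for a known inducer, and which interferon acted in these mice was not tested. Of 19 genes listed, 15 were tested, 13 had a difference above 0 and the median was 1.24, against -0.12 over all genes. The groups did not overlap for 11 of 15, all higher in KO_LPS (8.25% of all genes). Of the 15, 10 had an unadjusted p under 0.05 in that direction (2.89% of all genes), and 2, Iigp1 and Tgtp1, passed the adjusted test. The summed level was 417 to 534 FPKM in KO_LPS and 239 to 285 FPKM in WT_PBS. Leaving out KO_LPS 1, KO_LPS 2 and WT_LPS 1, the libraries high on the first component, leaves KO_LPS 3 alone in its group, here and below. The median of the GTPase list was then 0.90 with 15 of 15 above 0.

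Gbp2, a guanylate-binding protein, had 130.2, 101 and 51.0 FPKM in KO_LPS, against 14.2 and 10.4 FPKM in WT_PBS. It was high in every KO_LPS library, lowest in KO_LPS 3, and just missed the threshold (2.75 ± 0.35, limma adjusted p = 0.0528). Gbp6 had 18.6, 19.7 and 5.13 FPKM in KO_LPS, against 0.89 and 0.83 FPKM in WT_PBS, and Gbp4 had 10.6, 10.9 and 3.63 FPKM, against 0.76 and 0.51 FPKM. For both, KO_LPS 3 lay between the other KO_LPS libraries and WT_PBS (limma adjusted p of 0.167 and 0.129). The immunity-related GTPase Igtp, also called Irgm3, had 23.8, 23.2 and 18.9 FPKM in KO_LPS, against 7.67 and 7.39 FPKM in WT_PBS, with all 3 KO_LPS libraries alike (1.42 ± 0.21, limma adjusted p = 0.0936). Tgtp2, the copy of Tgtp1, had 39.0, 39.7 and 26.7 FPKM in KO_LPS, against 11.6 and 8 FPKM in WT_PBS. Irgm1, a regulatory member of the family, had 46.2, 61.8 and 38.5 FPKM, against 26.3 and 22.1 FPKM. Members did not all share this pattern: Gbp3 had 42.4, 33.6 and 42.8 FPKM in KO_LPS and 33.3 and 35.0 FPKM in WT_PBS, and Gbp7 had 97.3, 92.9 and 105 FPKM in KO_LPS and 125 and 88.5 FPKM in WT_PBS. Both overlapped between groups, at log2 differences of 0.20 ± 0.32 for Gbp3 and -0.10 ± 0.19 for Gbp7, and the sign for Gbp7 turned under median-ratio scaling (0.05).

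The promoters of the ranked genes were searched for 2 interferon-response elements in RefSeq windows of GRCm38.p6, from 250 bases before to 50 bases after each start. The gamma-activated site was searched as TTCNNNGAA, to which STAT dimers bind, and the core of the interferon-stimulated response element as GAAA, any 2 bases, and GAAA again, which IRF factors bind, each on both strands and with overlaps allowed. Of the 12 genes ranked higher, 8 had a window, 4 of them with a match, 2 for TTCNNNGAA and 4 for the response element core. Of the 12 genes ranked lower, 10 had a window and 1, Wls, had a match, for the response element core. Over 27025 genes with a window, 9.55% held TTCNNNGAA, 3.99% the response element core and 12.9% either. Iigp1, Batf2, Ifi27l2a and Gbp4 were not among the windows used here. The windows of Clec2e, St3gal6, Cxcl9 and Prss12 held no match. The 4 windows of higher genes that held a match, for both elements or the second one, are shown. They run 5′ to 3′ along the gene's strand, with matches in capitals. In Tgtp1 and Igtp the 2 elements lie side by side, 2 bases apart, at -88 and -77 from the start in Tgtp1 (chr11:48992197-48992496, minus strand) and at -45 and -34 in Igtp (chr11:58199306-58199605, plus strand). Gbp2 (chr3:142620413-142620712, plus strand) holds the second element at -59, read on the other strand, and Cxcl10 (chr5:92348840-92349139, minus strand) at -213. A match is a run of letters and does not show binding.
Tgtp1: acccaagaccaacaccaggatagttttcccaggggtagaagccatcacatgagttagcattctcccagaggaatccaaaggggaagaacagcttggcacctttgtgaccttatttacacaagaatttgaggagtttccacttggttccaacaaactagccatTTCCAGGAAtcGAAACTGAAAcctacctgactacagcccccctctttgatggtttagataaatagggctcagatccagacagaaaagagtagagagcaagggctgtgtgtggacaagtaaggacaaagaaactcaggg
Igtp: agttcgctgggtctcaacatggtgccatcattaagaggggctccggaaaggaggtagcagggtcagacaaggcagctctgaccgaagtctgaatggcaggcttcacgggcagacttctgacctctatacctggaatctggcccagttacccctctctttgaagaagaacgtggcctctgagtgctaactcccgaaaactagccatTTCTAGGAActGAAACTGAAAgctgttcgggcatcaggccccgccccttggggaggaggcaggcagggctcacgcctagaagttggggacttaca
Gbp2: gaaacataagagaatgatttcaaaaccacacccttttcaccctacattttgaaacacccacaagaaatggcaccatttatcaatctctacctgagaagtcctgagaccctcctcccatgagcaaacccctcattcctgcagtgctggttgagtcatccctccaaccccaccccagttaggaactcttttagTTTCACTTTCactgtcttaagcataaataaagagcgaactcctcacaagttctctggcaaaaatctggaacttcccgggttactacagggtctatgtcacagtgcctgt
Cxcl10: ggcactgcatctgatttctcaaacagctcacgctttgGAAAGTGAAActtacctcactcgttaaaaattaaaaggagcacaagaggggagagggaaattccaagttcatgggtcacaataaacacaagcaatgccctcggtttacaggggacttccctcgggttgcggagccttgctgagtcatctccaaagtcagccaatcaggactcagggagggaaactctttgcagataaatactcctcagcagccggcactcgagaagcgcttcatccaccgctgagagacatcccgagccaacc

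Chemokines that interferon-gamma induces were among the highest-ranked genes. Cxcl9, a ligand of CXCR3, a chemokine receptor found on T cells, had 10.97, 13.4 and 5.47 FPKM in KO_LPS, against 1.03 and 1.21 FPKM in WT_PBS, and Cxcl10, another ligand of CXCR3, had 6.99, 7.37 and 6.37 FPKM, against 0.83 and 1.46 FPKM. Both were above WT_PBS in every KO_LPS library, Cxcl10 at a similar level and Cxcl9 lower in KO_LPS 3, and neither passed (2.29 ± 0.32 and 1.90 ± 0.31, limma adjusted p of 0.0785 and 0.129). Ccl5, a chemokine of T cells and monocytes, had 87.4, 92.2 and 35.8 FPKM in KO_LPS and 20.1 and 14.2 FPKM in WT_PBS. Over 18 tested chemokines and receptors, 11 were above 0 and the median was 0.19. There was no overlap for 7 higher and 1 lower (8.25% and 13.2% of all genes). The lower one was Ccl6, a myeloid chemokine, at 9.7, 6.15 and 17.1 FPKM in KO_LPS and 21.8 and 18.1 FPKM in WT_PBS.

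Batf2, an interferon-induced transcription factor (chr19:6164397-6172476), had 4.24, 4.36 and 2.43 FPKM in KO_LPS, against 0.21 and 0.39 FPKM in WT_PBS. It lay just beyond the threshold (1.82 ± 0.23, limma adjusted p = 0.0544). Irf1, an interferon-induced regulatory factor, had 53.1, 92.6 and 49.4 FPKM in KO_LPS and 25.6 and 25.8 FPKM in WT_PBS, and Socs1, the feedback inhibitor of JAK kinases, had 6.76, 13.3 and 5.57 FPKM and 2.88 and 4.55 FPKM. Both were higher without overlap, as 2 of the 17 tested receptor and JAK-STAT genes (8.25% of all genes). Another 1 of the 17 was lower without overlap (13.2% of all genes). The median of that list was -0.06 and 12 members were below 0. The ranked gene Ifi27l2a, an interferon-induced mitochondrial protein gene (chr12:103433873-103443680), had 149.6, 132 and 104 FPKM in KO_LPS, against 51.9 and 60.8 FPKM in WT_PBS, with no overlap (1.16 ± 0.16, limma adjusted p = 0.0785). The antiviral interferon-stimulated genes stood closer to the background than the GTPases. Of 26 tested, 20 were above 0 with a median of 0.18, and 0 passed the adjusted limma test. An unadjusted limma p under 0.05 was found for 6 of them, all higher (2.89% of all genes). The groups did not overlap for 6 higher and 2 lower members (8.25% and 13.2% of all genes). Zbp1, a sensor of Z-form nucleic acid, had the widest gap, with 19.9, 15.9 and 8.43 FPKM in KO_LPS and 3.83 and 4.17 FPKM in WT_PBS. Irf7, the factor that amplifies type I interferon, had 18.3, 16.3 and 7.29 FPKM in KO_LPS and 5.82 and 7.33 FPKM in WT_PBS, and overlapped between groups. The antiviral list summed to 393 to 644 FPKM in KO_LPS and 331 to 333 FPKM in WT_PBS. Its median depended on the setting. With a filter at a mean of 5 FPKM, 14 of 15 members were above 0 and the median was 0.64. The GTPase median was 1.24 with that filter, and -0.08 over all genes. Without the 3 libraries high on the first component, the median of the antiviral list was 0.03.

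The class I antigen presentation genes were higher in KO_LPS across most of the list. Of 21 tested, 20 had a difference above 0, the median was 0.68, and 13 were higher without overlap (8.25% of all genes). None of the 21 passed the adjusted limma test, and 13 had an unadjusted p under 0.05, all higher (2.89% of all genes). Psmb9, an inducible catalytic subunit of the immunoproteasome, had 161, 123 and 127 FPKM in KO_LPS, against 76.9 and 80.3 FPKM in WT_PBS, the member with the smallest p (0.79 ± 0.14, limma adjusted p = 0.184). Tap1, a subunit of the peptide transporter of the endoplasmic reticulum, had 206, 173 and 88.0 FPKM in KO_LPS and 79.8 and 53.3 FPKM in WT_PBS. The class I heavy chain gene H2-K1 had 851, 689 and 466 FPKM in KO_LPS and 388 and 393 FPKM in WT_PBS, and H2-T23, the gene of Qa-1, had 149.6, 117 and 69.1 FPKM and 58.7 and 54.4 FPKM. Psmb9 was about as high in KO_LPS 3 as in KO_LPS 2, whereas Tap1, H2-K1 and H2-T23 were lowest in KO_LPS 3. Class I genes are close copies of one another, and reads may have been shared among them. The list's median was 0.87 among title numbers up to 6 and 0.32 above 6, and 0.25 without the 3 libraries high on the first component.

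The class II genes differed from one member to the next. The chains H2-Aa and H2-Eb1 and the chaperone Cd74 were higher in every KO_LPS library: H2-Aa had 97.5, 54.7 and 17.7 FPKM, against 9 and 9.24 FPKM in WT_PBS, H2-Eb1 had 48.6, 26.2 and 9.56 FPKM, against 4.36 and 4.57 FPKM, and Cd74, the invariant chain, had 168, 118 and 37.5 FPKM, against 33.2 and 28.5 FPKM. KO_LPS 1 was highest and KO_LPS 3 lowest for each, above WT_PBS but nearer to it than to KO_LPS 1, and no member passed (limma adjusted p of 0.511, 0.481 and 0.631). The regulator Rfx5 had 4.8, 4.71 and 7.44 FPKM in KO_LPS and 7.84 and 8.06 FPKM in WT_PBS, and H2-DMa, part of the peptide exchange factor, had 6.99, 4.66 and 4.85 FPKM in KO_LPS and 4.55 and 4.68 FPKM in WT_PBS. Over the 13 tested members, 8 were above 0 and the median was 0.19. WT_LPS 1, which also scored high on the first component, had 19.0 FPKM of H2-Aa, while WT_LPS 2 and WT_LPS 3 had 10.4 and 9.16 FPKM.

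**Figure D3:**
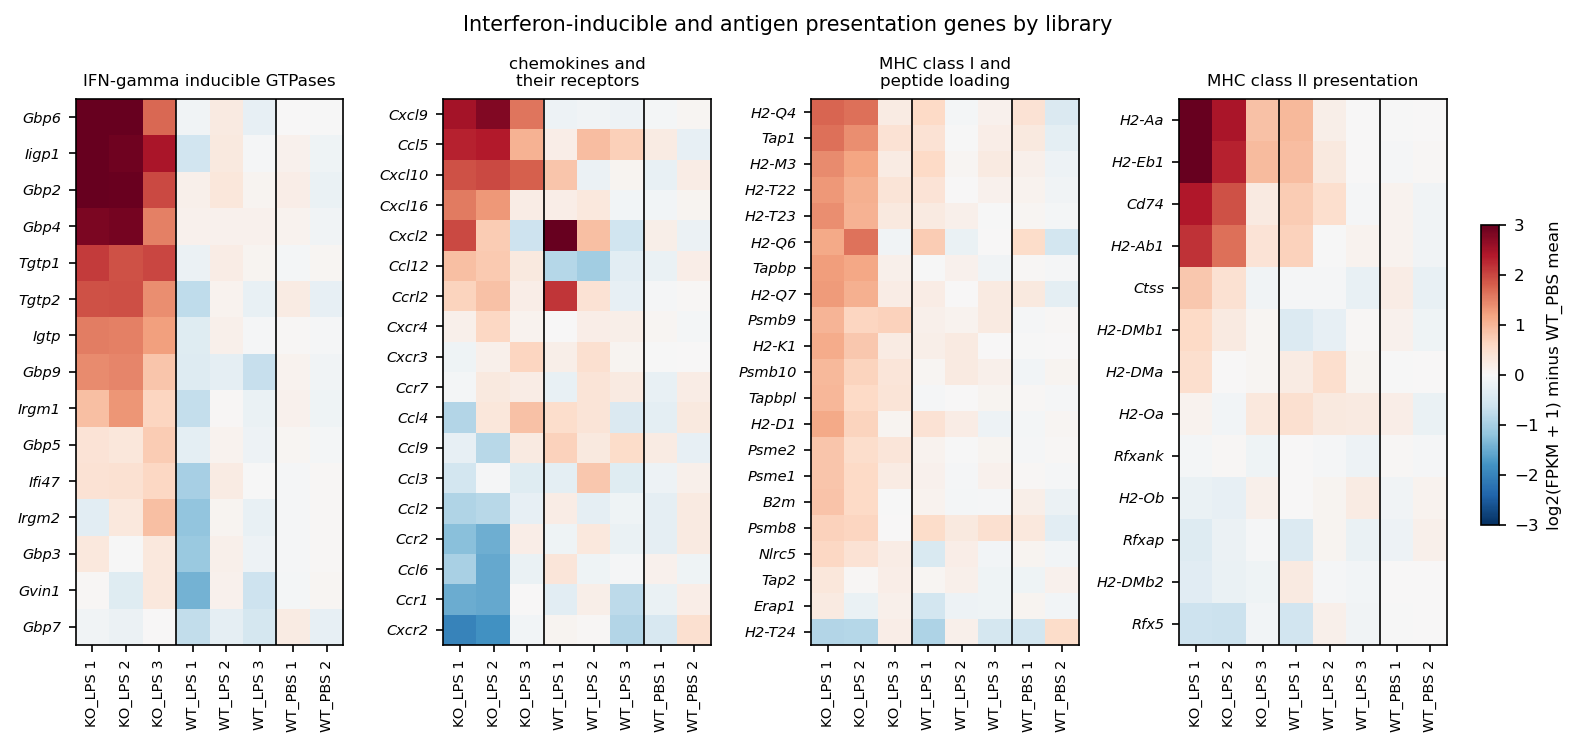
Log2(FPKM + 1) of each tested gene (rows) of 4 lists in each of the 8 libraries (columns, KO_LPS at the left of each panel and WT_PBS at the right), minus the mean of WT_PBS, from -3 (blue) to 3 (red). Gbp2, Gbp6, Iigp1, Tgtp1, Cxcl9 and Cxcl10 are red in all 3 KO_LPS columns and Gbp3 and Gbp7 are near white, while Tap1, H2-K1, H2-Aa and Cd74 are paler in KO_LPS 3 than in KO_LPS 1 and KO_LPS 2.

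The genes of the LPS receptor and of the LPS response did not share the pattern of the GTPase list. Of 20 tested genes of the TLR4 complex and its adaptors, 6 were above 0, the median was -0.20, and 5 were lower without overlap (13.2% of all genes). Ly96, the MD-2 subunit that holds LPS on TLR4, had 3.4, 3.72 and 5.08 FPKM in KO_LPS and 5.57 and 5.28 FPKM in WT_PBS. Of 24 LPS response and NF-kB targets, 12 were above 0 and the median was -0.03. Of these targets, 2 were higher and 4 lower without overlap (8.25% and 13.2% of all genes). Saa3, an acute-phase gene induced by LPS in mice, had 830.0, 1137 and 148 FPKM in KO_LPS, against 64.7 and 36.9 FPKM in WT_PBS. KO_LPS 3 lay well below the other KO_LPS libraries, and the difference of 3.38 ± 0.76 did not pass (limma adjusted p = 0.331). Saa3 had 366, 289 and 185 FPKM in WT_LPS, above both WT_PBS libraries in each case. Birc3, an inhibitor of apoptosis and NF-kB target, had 14.0, 13.8 and 19.9 FPKM in KO_LPS and 23.8 and 24.4 FPKM in WT_PBS, and the anti-inflammatory cytokine Il10 had 0.33, 0.26 and 0.37 FPKM and 0.7 and 1.9 FPKM, both lower without overlap. Of 17 immediate early genes, 12 were above 0 with a median of 0.22, but the median was 0.45 among title numbers up to 6 and -0.39 above 6, and -0.44 without the 3 libraries high on the first component. Egr1, an example, had 28.1, 49.4 and 3.01 FPKM in KO_LPS and 5.64 and 5.48 FPKM in WT_PBS.

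DNA repair genes had differences mostly below 0, and 0 of them passed the adjusted limma test. Mbd4, a glycosylase that removes thymine and uracil from mismatches, had 1.23, 1.33 and 3.34 FPKM in KO_LPS and 3.15 and 3.12 FPKM in WT_PBS, low in KO_LPS 1 and 2 and at the WT_PBS level in KO_LPS 3. Of 18 mismatch repair and translesion genes, 4 were above 0 with a median of -0.16. Of 23 genes of double-strand break repair and checkpoints, 3 were above 0 and the median was -0.32. Of these, 0 were free of overlap, against 8.25% of all genes on the higher and 13.2% on the lower side. Atr, a checkpoint kinase, had 2.54, 1.94 and 6.87 FPKM in KO_LPS and 6.4 and 7.27 FPKM in WT_PBS, and Rad50, of the MRN complex, had 7.78, 5.77 and 14.6 FPKM and 13.6 and 15.5 FPKM. Again KO_LPS 3 matched WT_PBS. The median of this list was -0.50 among title numbers up to 6 and 0.06 above 6. Of 12 V(D)J recombination genes, 1 was above 0, the median was -0.36, and 3 were lower without overlap (13.2% of all genes). Without the 3 libraries high on the first component all 3 medians were above 0, at 0.04 for mismatch repair, 0.11 for double-strand break repair and 0.12 for V(D)J recombination. In these 3 lists, 1 gene, of V(D)J recombination, had an unadjusted limma p under 0.05, on the lower side (3.81% of all genes).

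Among B-lineage transcription factors, 5 of 21 were lower without overlap (13.2% of all genes) and 2 higher (8.25%), and the median was -0.16. Ikzf3, the Aiolos gene that follows pre-B cell receptor signalling, had 0.73, 1.1 and 2.12 FPKM in KO_LPS, against 5.89 and 7.92 FPKM in WT_PBS, with KO_LPS 3 the nearest to WT_PBS (-1.80 ± 0.39, limma adjusted p = 0.273). Pax5, the factor that commits cells to the B lineage, had 77.2, 65.0 and 100.5 FPKM in KO_LPS and 137 and 137 FPKM in WT_PBS. Bcl6, a repressor used by germinal centre and pre-B cells, had 0.91, 1.67 and 2.52 FPKM in KO_LPS and 4.16 and 4.93 FPKM in WT_PBS, and Spib had 2.75, 1.99 and 6.64 FPKM and 8.02 and 10.7 FPKM. All 4 were lower in every KO_LPS library than in either WT_PBS library, and none passed (limma adjusted p of 0.273 to 0.631). WT_LPS 1 had 3.06 FPKM of Ikzf3 and 77.2 FPKM of Pax5, lower than the other WT_LPS libraries. Of 20 pre-B cell receptor genes, 8 were above 0 with a median of -0.12. Cd22, an inhibitory co-receptor, had 21.1, 15.8 and 26.9 FPKM in KO_LPS and 35.0 and 39.7 FPKM in WT_PBS, and Blnk, the adaptor below SYK, had 59.4, 83.2 and 64.8 FPKM and 45.0 and 51.1 FPKM. Of 16 B-cell identity genes, 6 were above 0 with a median of -0.32, and of 15 germinal centre genes, 3 with a median of -0.24. Of 24 genes downstream of STAT5 and BCR-ABL1, 14 were above 0 and the median was 0.03. Without the 3 libraries high on the first component the median turned to 0.03 for B-lineage factors, 0.09 for B-cell identity and -0.13 for the genes downstream of STAT5.

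The remaining genes ranked higher and lower by the smallest p did not pass. Prss12, a secreted serine protease, had 7.99, 7.14 and 7.5 FPKM in KO_LPS, against 0.97 and 2.14 FPKM in WT_PBS, with the KO_LPS libraries close together (1.78 ± 0.26, limma adjusted p = 0.0864). On the lower side, Sptbn1, a spectrin of the membrane skeleton, had 1.4, 1.61 and 3.2 FPKM in KO_LPS, against 9.54 and 10.4 FPKM in WT_PBS. Wls, the carrier of WNT ligands to the cell surface, had 1.91, 1.85 and 4.46 FPKM in KO_LPS, against 12.2 and 14.5 FPKM in WT_PBS. For both, each KO_LPS library was below each WT_PBS library and KO_LPS 3 was the highest of its group (limma adjusted p of 0.0785 and 0.1). Fbxw8, the substrate receptor of a cullin ligase, had 1.67, 1.49 and 1.71 FPKM in KO_LPS and 5.52 and 4.76 FPKM in WT_PBS, and Emid1 had 14.7, 14.1 and 15.4 FPKM and 33.5 and 31.4 FPKM. In these 2 genes KO_LPS 3 lay with the rest of KO_LPS. Madcam1, an adhesion ligand for lymphocyte homing, had 0.79, 1.31 and 0.78 FPKM in KO_LPS, 0.56, 1.49 and 1.68 FPKM in WT_LPS and 4.72 and 4.28 FPKM in WT_PBS, so that both LPS groups were below WT_PBS. The other lower-ranked genes, Tmprss3, Dpep2, Zfp770, Rmdn2 and Atoh7, had differences of -1.72, -1.56, -1.09, -1.0 and -1.13. Adjusted p over the 10 lower-ranked genes that did not pass ran from 0.0785 to 0.204 in limma.

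Growth and metabolism lists had medians from -0.49 to 0.30, and some of these depended on the scaling. Of 29 oxidative phosphorylation genes, 26 were above 0, the median was 0.30, and 19 were higher without overlap (8.25% of all genes). The median of this list was 0.15 after quantile normalization and 0.11 with the first component as a covariate. It was 0.13 without the 3 libraries high on that component. Cox6a1, a subunit of cytochrome c oxidase, had 1182, 1228 and 915 FPKM in KO_LPS and 694 and 693 FPKM in WT_PBS (0.66 ± 0.20, limma adjusted p = 0.598). Of 31 cytosolic ribosomal protein genes, 30 were above 0 with a median of 0.20, but the median was -0.0027 after quantile normalization, with 15 above 0. These are short transcripts, and the difference ran with length: its median was -0.03 in the shortest of 4 length classes (median length 1548 bases) and -0.17 in the longest (6198 bases). The part of length in these lists was not tested beyond removing the trend, after which the medians were 0.37 and 0.28 (0.02 over all genes). Of 20 Myc and ribosome biogenesis genes, 2 were above 0 and the median was -0.49, and with the first component as a covariate it was 0.07. Mycn, a Myc family factor of progenitors, had 5.8, 7.81 and 7.4 FPKM in KO_LPS, against 19.8 and 16.3 FPKM in WT_PBS, with KO_LPS 3 at the level of its group (-1.25 ± 0.24, limma adjusted p = 0.209). Of 25 mitotic genes, 15 were above 0 with a median of 0.11 and 8 higher without overlap (8.25% of all genes). Among the 8 was Birc5, the survivin gene, at 159, 196 and 139 FPKM in KO_LPS and 118 and 109 FPKM in WT_PBS. Of 31 replication genes, 11 were above 0 with a median of -0.02. Of 19 glycolysis genes, 8 were above 0 with a median of -0.08, of 24 unfolded protein response genes, 9 with a median of -0.12, of 22 p53 targets, 15 with a median of 0.19, and of 16 BCL2 family genes, 9 with a median of 0.22. Without the 3 libraries high on the first component the median turned to -0.14 for p53 targets, -0.03 for the BCL2 family, -0.01 for ribosomal proteins, 0.13 for glycolysis and 0.28 for replication, and was -0.02 for Myc and ribosome biogenesis.

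**Figure D4:**
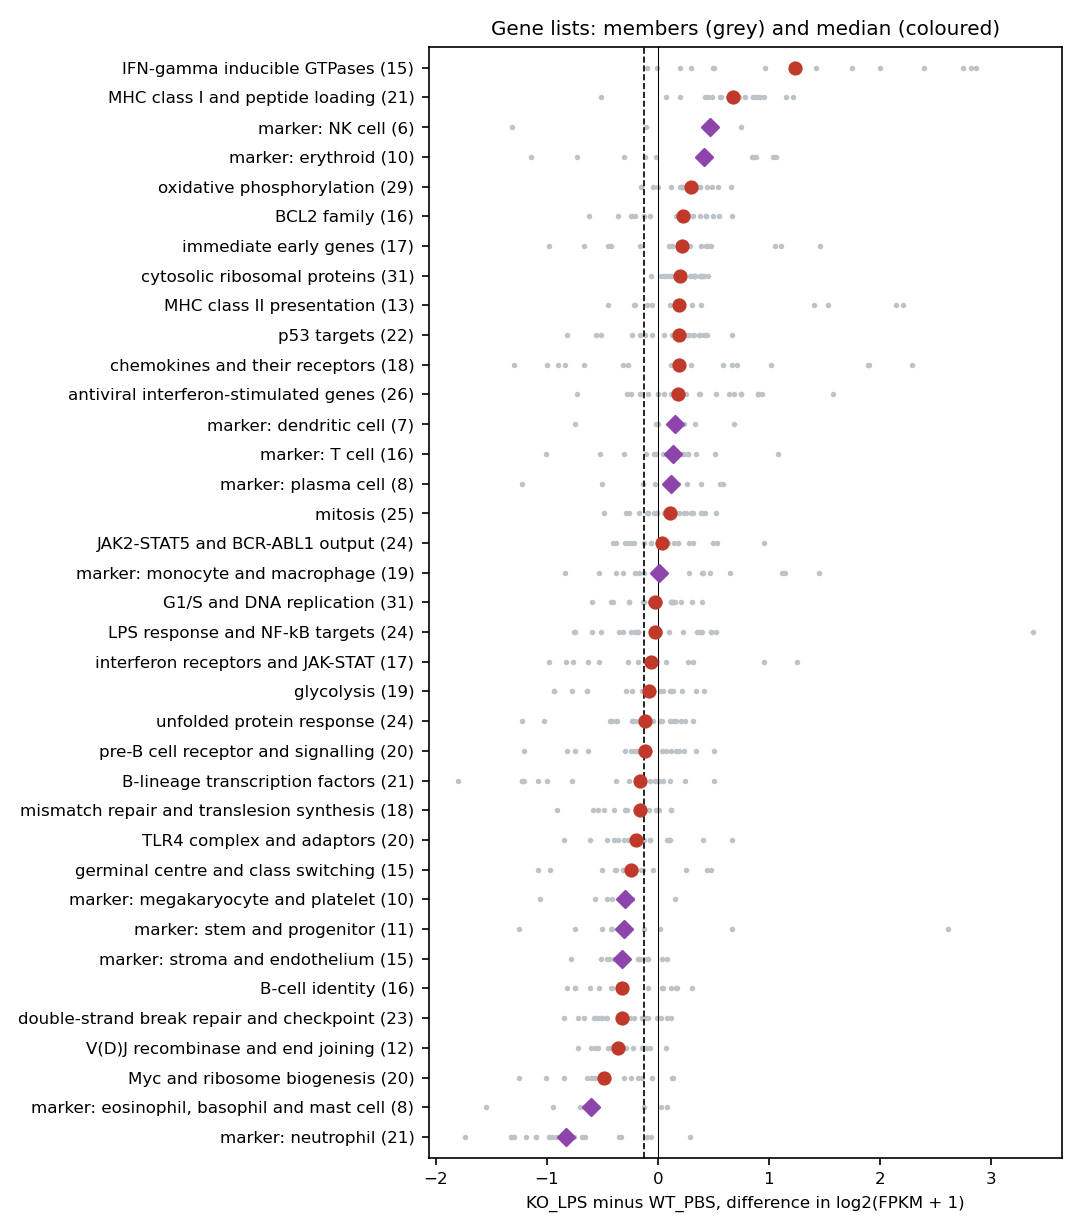
Difference of KO_LPS from WT_PBS in log2(FPKM + 1) (x axis) for the tested members (grey points) and the median (red circle, or purple diamond for markers of another cell type) of the gene lists shown (rows, number tested in brackets). The dashed line is the median over all genes, -0.12, and the interferon-gamma GTPases and class I genes have the highest medians, 1.24 and 0.68, while neutrophil markers have the lowest, -0.82.

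Markers of other marrow cells also differed between the libraries. Of 21 neutrophil markers, 1 was above 0 and the median was -0.82, with summed levels of 7444, 6394 and 16036 FPKM in KO_LPS 1 to 3, against 13980 and 17540 FPKM in WT_PBS. KO_LPS 3 lay inside the WT_PBS range, and without the 3 libraries high on the first component the median was 0.04. S100a8, a neutrophil calcium-binding protein, had 2966, 2449.6 and 5861 FPKM in KO_LPS and 4899 and 6153 FPKM in WT_PBS. Of 10 tested erythroid markers, 5 were above 0 with a median of 0.41, which turned to -0.89 without those 3 libraries, and the list summed to 1330, 1098 and 284 FPKM in KO_LPS, against 489 and 363 FPKM in WT_PBS. Of 19 monocyte and macrophage markers, 10 were above 0 with a median of 0.01, yet C1qb, a complement gene of macrophages, had 93.1, 76.3 and 24.1 FPKM in KO_LPS and 16.3 and 23.8 FPKM in WT_PBS. Csf1r, the receptor that defines the lineage, had 23.8, 18.4 and 23.6 FPKM in KO_LPS and 33.0 and 30.9 FPKM in WT_PBS, the other way. Of 7 dendritic cell markers, 4 were above 0 with a median of 0.16, of 16 T cell markers, 10 with a median of 0.13, and of 6 natural killer markers, 4 with a median of 0.47. T cell markers summed to 39.1 to 49.4 FPKM in KO_LPS and 41.4 to 43.5 FPKM in WT_PBS, and natural killer markers to 22.7 to 62.2 FPKM and 30.5 to 50.4 FPKM. The GTPase and class II genes were thus read in libraries whose neutrophil, erythroid and macrophage markers also differed. The part of cell content in them was not tested. Between KO_LPS 3 and WT_PBS 2, the libraries numbered above 6 and 1 library per group, the GTPase median was 0.94. The class II median was 0.12 in this pair, and the median over all genes -0.03. In the same pair the median was -0.19 for neutrophil, -0.70 for erythroid, -0.50 for megakaryocyte and -0.04 for monocyte and macrophage markers. It was 0.29 for T cell and 0.77 for natural killer markers, so that several marker lists still differed there.

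**Figure D5:**
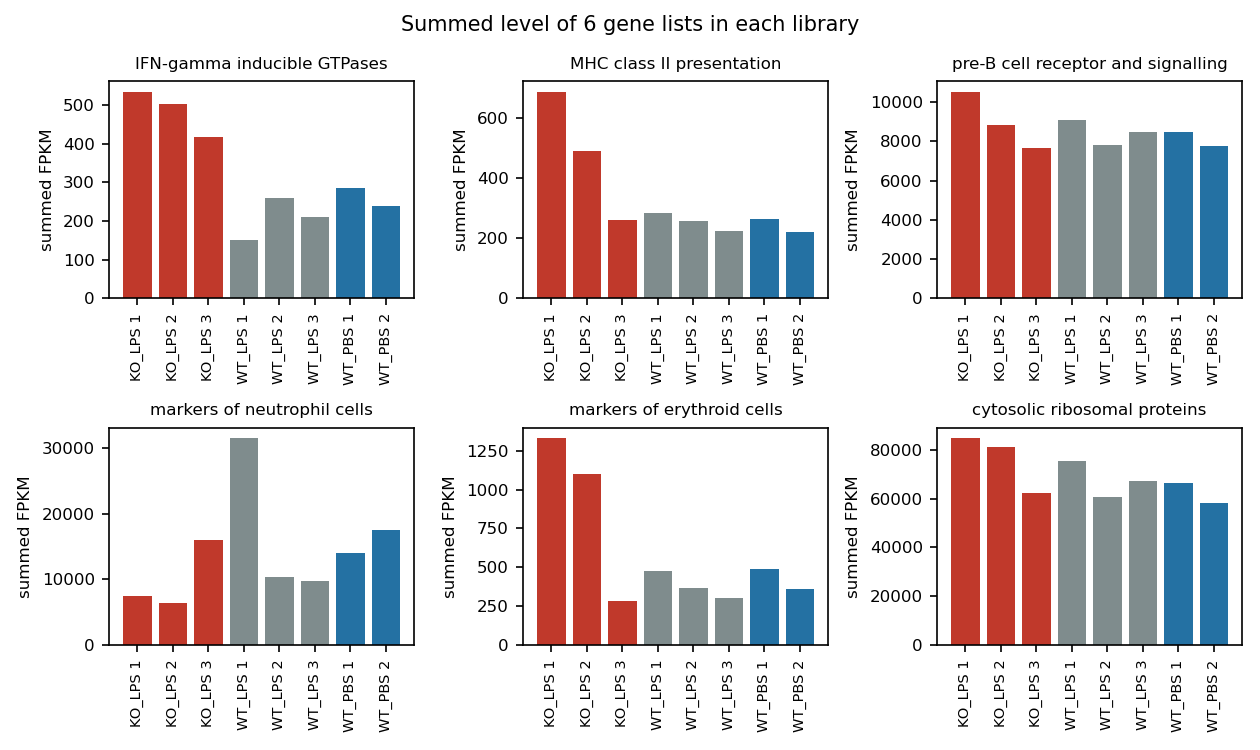
Summed FPKM (y axis, from 0) of 6 gene lists in each library, with KO_LPS in red, WT_LPS in grey and WT_PBS in blue, 1 bar per library and no error bar. The GTPase sum is at least 417 FPKM in the 3 KO_LPS libraries and at most 285 FPKM in the other 5, whereas neutrophil, erythroid and class II sums differ between KO_LPS 3 and the other KO_LPS libraries.

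Among stem and progenitor markers, Ly6a, the interferon-responsive Sca-1 gene of mice, was higher in KO_LPS. It had 70.3, 48.4 and 16.1 FPKM in KO_LPS, 5.31, 6.24 and 6.65 FPKM in WT_LPS and 4.58 and 6.39 FPKM in WT_PBS. Each KO_LPS library was above the other 5, KO_LPS 3 the least, and the difference from WT_PBS did not pass (2.61 ± 0.51, limma adjusted p = 0.220). Over the 11 tested members, 3 were above 0 and the median was -0.31. There was no overlap for 2 higher and 5 lower (8.25% and 13.2% of all genes). Procr, also higher, had 0.87, 1.14 and 0.32 FPKM in KO_LPS and 0 and 0.2 FPKM in WT_PBS. Of 10 megakaryocyte and platelet markers, 1 was above 0, the median was -0.30 and 4 were lower without overlap (13.2% of all genes). Among these, Itgb3, an integrin of platelets, had 2.32, 2.02 and 3.18 FPKM in KO_LPS and 5.56 and 6.98 FPKM in WT_PBS (-1.06 ± 0.22, limma adjusted p = 0.248). Of 8 eosinophil, basophil and mast cell markers, 2 were above 0 with a median of -0.61, of 15 stromal and endothelial markers, 2 with a median of -0.32, and of 8 plasma cell markers, 4 with a median of 0.12. Ear2, an eosinophil ribonuclease gene, had 2.85, 2.69 and 9.36 FPKM in KO_LPS and 13.7 and 15.2 FPKM in WT_PBS, with KO_LPS 3 the nearest to WT_PBS.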

How the data were processed

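The authors deposited 1 table of FPKM values for the 8 libraries, per the file headers. Per the labels' protocols, total RNA was turned into libraries by a SMARTER mRNA-Seq kit. The builds GRCm38 and mm10, names of 1 assembly, come from the submitters' processing notes, and the sources used here give no aligner or quantifier. These values account for length and total but not for a library's composition. Of 18020 rows, 16798 matched a symbol in a RefSeq table of GRCm38.p6, 1119 were unnamed loci and 103 others were unmatched.

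Values were analysed as log2(FPKM + 1). Group means were fitted with limma (version 3.58.1, R 4.3.3) to all 8 libraries, which shared 1 estimate of the spread, with an intensity trend, two-sided tests and Benjamini-Hochberg adjustment over 12062 genes at 0.05. The fit was tested on simulated data. The simulated noise was independent for each gene and library, without the first component that the real libraries share. The simulation therefore cannot tell how far the calls depend on single libraries. The 41 gene lists, for which 763 of 778 symbols were in the table, were described by counts and medians with no test. The members and lists were chosen with earlier results of these data known.

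Named genes were the 12 genes per direction without overlap between groups that passed, filled up by the smallest p (antigen receptor segments, mitochondrial, pseudo and predicted genes and unnamed loci left out), and up to 4 members of each list with the smallest p. Tgtp2, Gbp6, Irgm1, Gbp3, Gbp7, H2-K1, H2-T23, Tap1, S100a8, Mbd4, Atr, Rad50 and the list examples outside this rule were chosen after their values were seen. Some genes and lists are not reported here. Replicate numbers follow accession order and pair no samples. The 21 alternatives fixed with the design were pseudocounts, filters, scalings, moderation, library weights, covariates and left-out libraries, and 1, removal of length and GC trends with GENCODE M21 transcripts (93.9% of tested genes), was added after seeing the data.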

Additional observations from a re-analysis of the deposited data

How the results depend on the processing

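Against 6 genes called (4 higher, 2 lower), the count was 4 with a pseudocount of 0.1 (2 higher) and 4 with a pseudocount of 5 (1 lower). It was 0 with no filter (0 higher, 0 lower, 1285 at an unadjusted limma p under 0.05), 3 with a filter at a mean of 5 FPKM (2 higher, 1 lower), 3 with median-ratio scaling (3 higher, 0 lower) and 10 with quantile normalization (7 higher, 3 lower). Library weights gave 2942 genes (939 higher, 2003 lower), a fit of only KO_LPS and WT_PBS 0 (0 higher, 0 lower), and a term for title numbers 64 (28 higher, 36 lower). Without the 3 libraries high on the first component, where KO_LPS 3 alone stands for its group and is assumed to vary like the others, 1 unnamed locus passed (1 higher, 0 lower). Robust moderation gave 6 genes, the first component as covariate 6, of which 5 were among the 6 above, no unnamed loci 8, and removal of length and GC trends 9. With 1 library left out the counts ran from 0 to 130, higher from 0 to 73 and lower from 0 to 57. The cause of these shifts was not tested.

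Gbp7 differed by 0.052 with median-ratio scaling, 0.083 with length and GC trends removed, 0.0014 without the 3 libraries, and from -0.35 to 0.15 with 1 library left out. Without the 3 libraries, Mmp8 differed by 0.040, S100a8 by 0.094, S100a9 by 0.053, Mbd4 by 0.070, Atr by 0.0087 and Rad50 by 0.0087, where all were below 0 with them. No paired analysis was possible because the labels give the groups no shared replicate numbers.

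Depth in reads is unknown, so the precision of low FPKM values was not measured, and 3 libraries against 2 leave it to the shared spread of all 8 to decide calls.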
